A study of Mus musculus with 8 samples.

Results

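Open chromatin was examined at the 4 genes of the RUNX transcription factor complex in mouse leukemia cells, namely Runx1, Runx2 and Runx3, which encode DNA-binding subunits, and Cbfb, which encodes their common partner. A peak was assigned to a gene when its summit lay inside the gene's mm10 span or within 100 kb of it, a window that holds both Runx1 promoters and the Runx1 enhancer known as +23 kb. Peaks of the 8 lists that shared at least 1 bp were merged into 138385 regions, of which 225 belonged to these genes. The Runx1 locus held 82 of them, the Runx2 locus 61, the Runx3 locus 56 and the Cbfb locus 26. Regions were assigned to these genes by position alone, whatever the strength of their peaks. The genes themselves were chosen with earlier results of these data known.

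The cells were leukemic granulocyte-macrophage progenitors (L-GMPs), sorted from the bone marrow of mice with acute myeloid leukemia driven by the MLL-AF9 fusion. All 8 libraries came from such mice, which differed in Dek, the gene of a chromatin-binding nuclear protein. Control libraries FL 1 and FL 2 were Dekfl/fl, and knockout libraries KO 1 and KO 2 were Dekfl/fl,MX1-Cre, with Cre under a promoter that interferon induces in many tissues. These 4 libraries form the Mx1-Cre set. In the Tie2-Cre set, control FL 3 was Dek+/+, knockout KO 3 was Dekfl/fl;Tie2-Cre, with Cre under a promoter active in endothelium and blood cells, and 4S-A 1 and 4S-A 2 carried alanine in place of 4 serines of DEK (Dek-Ser306A/Ser308A/Ser311A/Ser312A). FL therefore joins floxed and wild-type Dek, and KO joins 2 Cre drivers. The labels do not say whether libraries of a group came from separate animals, so p-values measure only the spread between these samples, which may be technical. The age of the mice is not given in the sources used here.

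RUNX proteins bind DNA through the Runt domain, at sites with the core TGTGGT, and CBFB, which does not touch DNA itself, raises their affinity and protects them from degradation. RUNX1 is needed to form blood stem cells and later shapes myeloid, lymphoid and megakaryocyte genes, and both RUNX1 and CBFB are recurrent partners in leukemia fusions. RUNX2 directs bone formation and RUNX3 acts in T and NK cells and in sensory neurons. RUNX genes use a distal promoter, P1, and a proximal one, P2, which give proteins with different first residues.

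The promoter sequences are shown first because P1 and P2 differ in letters as well as in peak behaviour. RefSeq (GRCm38.p6, the assembly also called mm10) gives Runx1 starts at chromosome 16, position 92826074 (P1) and 92697329 (P2), 128.7 kb apart on the minus strand. Runx3 starts lie at chromosome 4, position 135120645 (P1) and 135152545 (P2), 31.9 kb apart on the plus strand. Single starts were used for Runx2 (chromosome 17, position 44814627, minus strand) and Cbfb (chromosome 8, position 105170674, plus strand), and other Runx2 starts were not analysed here. The 250 bases before each Runx1 start follow, 5′ to 3′ on the minus strand, P1 from chr16:92826075-92826324 and P2 from chr16:92697330-92697579, with CCAAT boxes (CCAAT or its reverse complement ATTGG, in 37.4% of all promoters) in capitals.
Runx1 P1: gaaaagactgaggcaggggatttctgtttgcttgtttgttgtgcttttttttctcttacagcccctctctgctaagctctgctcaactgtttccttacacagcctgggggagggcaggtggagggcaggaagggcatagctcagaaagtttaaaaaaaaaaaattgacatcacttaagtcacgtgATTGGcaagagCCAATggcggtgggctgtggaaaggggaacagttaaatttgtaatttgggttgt
Runx1 P2: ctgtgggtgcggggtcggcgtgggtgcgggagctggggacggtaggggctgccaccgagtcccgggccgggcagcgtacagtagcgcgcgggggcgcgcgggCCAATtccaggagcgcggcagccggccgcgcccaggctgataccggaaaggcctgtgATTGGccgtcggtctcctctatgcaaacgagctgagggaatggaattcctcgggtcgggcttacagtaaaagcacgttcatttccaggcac
Over 300 bases, from 250 before to 50 after the start, Runx1 P1 had 45.0% G and C and 2 CG pairs, against 69.0% and 35 CG pairs for P2. The median of 32851 promoters was 52.7% and 7 CG pairs. Runx3 P1 held 63.7% and 8 CG pairs, Runx3 P2 77.3% and 45, the Cbfb start 69.7% and 30, and the Runx2 start 45.3% and 2. Thus P1 was poorer in CG pairs than P2 at Runx1 and at Runx3. Runx2 was not compared in this way, because a single start was used for it.

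The longest run of bases shared by Runx1 P1, Runx3 P1 and the Runx2 start was 18 bases long, and none of the other member starts had it. The run, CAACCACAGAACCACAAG, holds 2 copies of ACCACA, the reverse complement of the RUNX core TGTGGT, with 2 bases between them. It was found in 4 of the 32851 promoters (0.0122%, both strands searched). Of these, 3 hold it by construction, because the run was taken from them. The other one was that of the predicted gene Gm16225, whose window overlaps Runx3 P1 on the opposite strand, so that it is the same copy. A single TGTGGT on either strand was found in 16.8% of promoters, and at least 2 copies in 1.81%. The core has 6 bases and the run 18, so their shares are not comparable. The 30 bases around the run are shown with both ACCACA copies in capitals, from chr16:92826025-92826054 (minus strand), chr17:44814582-44814611 (minus strand) and chr4:135120504-135120533 (plus strand).
Runx1 P1 tandem: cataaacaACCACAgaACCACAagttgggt
Runx2 start tandem: acaaacaACCACAgaACCACAagtgcggtg
Runx3 P1 tandem: tccctcaACCACAgaACCACAaggccaggc
The run lay just after the RefSeq start of Runx1 P1 and of Runx2, and before that of Runx3 P1. At Runx1 P1 the peak covered it in 8 of 8 libraries, with the summit 0 to 17 bases away. At Runx3 P1 the peak also covered it in 8 of 8 libraries, with the summit at most 8 bases away and on the run itself in 5. At the Runx2 start the summit was 151 to 219 bases away in the 4 libraries with a peak, and 1 of these peaks reached the run. A match of letters is a description and not evidence of binding.

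Lists differed in length with the set. The Mx1-Cre set held 51510 to 74026 peaks per list and the Tie2-Cre set 91586 to 104605, read depth is unknown, and list length, set and Dek allele cannot be told apart. Strength is given as the percentile of a peak's −log10 q within its own list (100 for the strongest). This scale does not remove list length. The 33321 regions held by every library had median percentiles of 66.3 (FL 1) to 76.7 (KO 2) in the Mx1-Cre set. In the Tie2-Cre set their medians were 80.8 (4S-A 2) to 82.6 (4S-A 1). Percentiles are thus not level between the sets, and ranks among these shared regions are used for the fits below. All 7 markers of the sorted progenitors (Kit, Cd34, Fcgr3, Fcgr2b, Mpo, Elane and Myb) had an open start in every library, and the gated-out marker Ly6a in none. Of 21045 gene starts, 51.5% were open in every library. A start counted as open when a summit lay within 1 kb of a listed RefSeq start or, for genes not in that list, of either end of the gene. Of 4 markers each, 0 or 1 was open for T cells and for B cells (Cd3e, Cd3d, Cd8a, Cd79a, Pax5 and Ms4a1 in no library), 1 or 2 for erythroid cells, 1 to 3 for megakaryocytes and 1 to 3 for endothelium, and of 6 stroma and bone markers 1 to 3. The endothelial count (Cdh5, Pecam1, Tek and Kdr) was 1 for each FL library but 3, 3 and 2 for the KO libraries and 3 for each 4S-A library, with no peak above a percentile of 31.6. It moved with the groups compared below. The part of such cells in those comparisons was not tested. Dek itself had 3 regions, 1 of them in all libraries, and since the labels do not say which exons were deleted these peaks do not check the knockout.

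Of the 225 regions, 70 (31.1%) held a peak in all 8 libraries, against 24.1% of all regions. The share was 21 of 82 at Runx1, 14 of 61 at Runx2, 20 of 56 at Runx3 and 15 of 26 at Cbfb. Cbfb stood apart in layout. None of its 26 regions had its strongest summit inside the gene, and 10 of them lay within 1 kb of the end of another gene, 9 of these being among its 15 shared regions. At Runx1 46 regions lay inside the gene, 13 of them shared, and at Runx2 52 and 13. Runx3 had 10 inside, 26 upstream and 20 downstream. All 4 Tie2-Cre libraries and no other held 18 member regions (8%, against 7.71% of all regions), and none was held by exactly the 4 Mx1-Cre libraries.

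**Figure D1:**
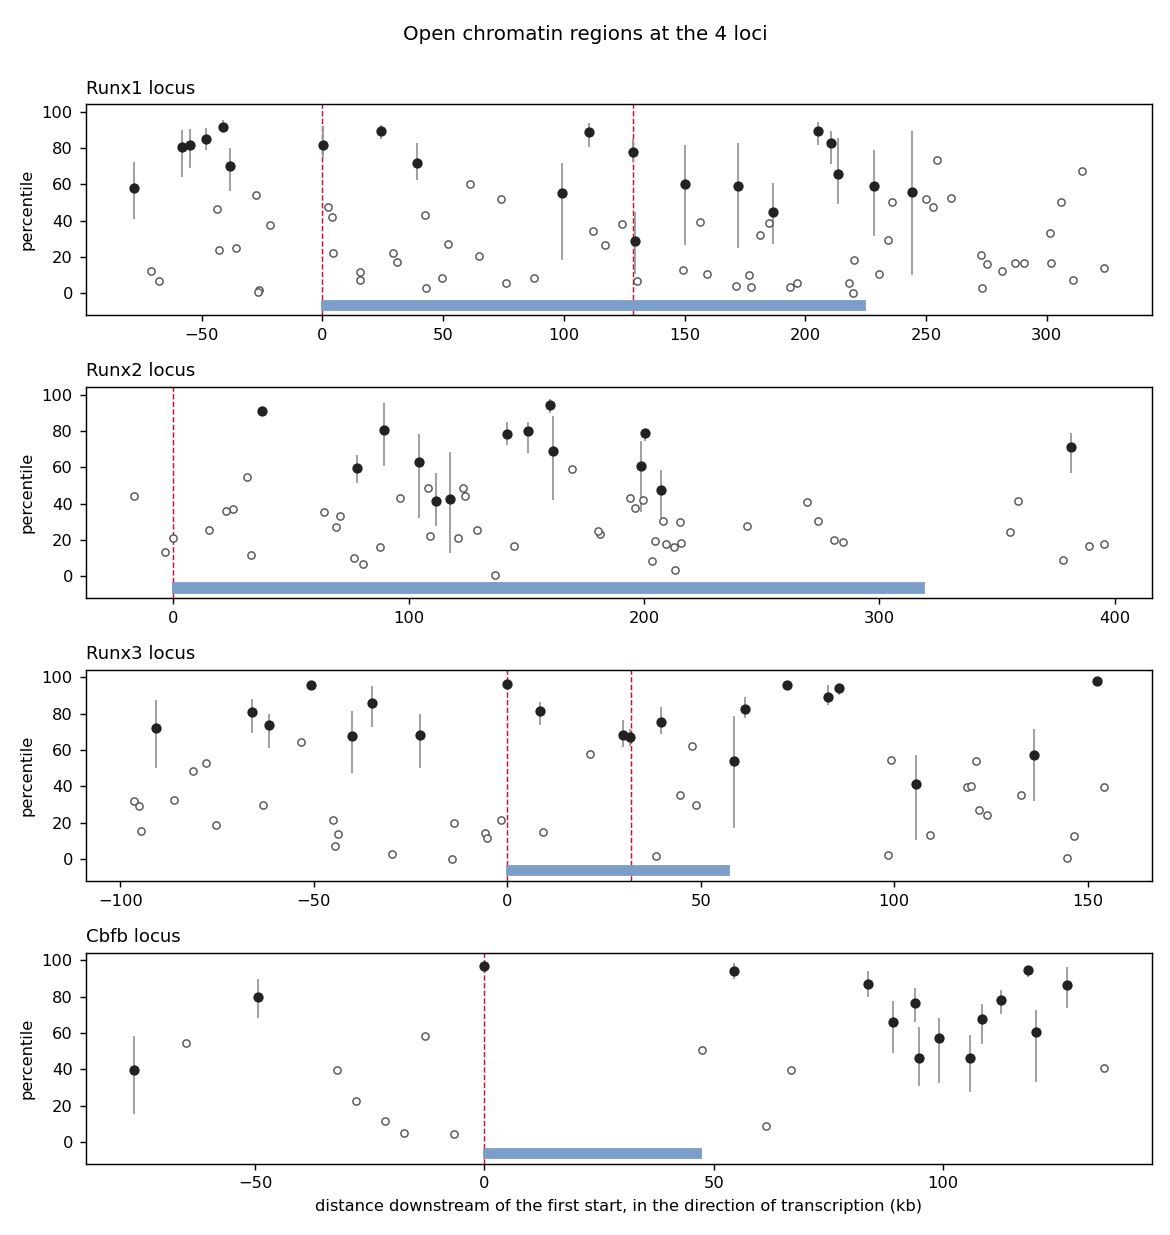
Each point is 1 of the 225 regions, at its distance in kb from the first start of the gene (x axis) and at its mean percentile of −log10 q over the libraries with a peak (y axis). Filled points were held by all 8 libraries, with grey lines from their lowest to their highest value, open points by fewer; blue bars mark the gene and dashed lines the starts. Shared regions cluster 38.3 to 58.1 kb upstream of Runx1 and beyond the end of Cbfb, and no region has its strongest summit inside the Cbfb gene.

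Both Runx1 promoters were open in all 8 libraries. P1 (chr16:92825222-92826333) stood at percentiles of 79.2, 78.3 and 92.4 for FL 1, FL 2 and FL 3, of 74.6, 86.4 and 85.6 for the KO libraries in the same order, and of 76.4 and 81.3 for 4S-A 1 and 4S-A 2. FL 3 was the highest, and FL, KO and 4S-A overlapped. P2 (chr16:92697166-92698974) stood at 84.2, 84.8 and 73.9 in FL, 73.7, 82.7 and 72.4 in KO, and 77.2 and 74.6 in 4S-A. Each KO value at P2 lay below every FL value of its own set. P1 was stronger than P2 in 5 of 8 libraries, so the order of the promoters was not stable. Among the 10836 gene starts open in all libraries, 30.6% had a lower mean percentile than Runx1 P1 and 24.6% a lower one than P2.

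The Runx1 +23 kb enhancer, an element known to drive Runx1 in emerging and adult blood stem cells, was among the strongest regions of the locus. The region nearest to that position (chr16:92800632-92802208, inside the gene, strongest summit 24.3 kb downstream of P1) stood at 92.6, 91.6 and 88.5 in FL, 87.2, 91.7 and 85 in KO, and 91.0 and 88.3 in 4S-A. The groups overlapped. It was the stronger of enhancer and P1 in 6 of 8 libraries. Mx1-Cre libraries resolved 2 separate peaks there, and Tie2-Cre libraries 1 merged peak of 1419 to 1577 bases, against 478 to 522 for the stronger of the 2 peaks in the Mx1-Cre set. The median peak of a library was also wider in the Tie2-Cre set, at 398 to 436 bases against 318 to 340.

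Other Runx1 regions were as strong as the promoters. A region 41.4 kb upstream of P1 (chr16:92867145-92867947) stood between 88.6 and 95.5 in all libraries, and it was 1 of 5 shared regions between 38.3 and 58.1 kb upstream, with percentiles of 56.5 to 95.5. Inside the gene, other strong regions lay 205.2 kb downstream of P1 (chr16:92620677-92621646, percentiles 81.7 to 94.4) and 110.4 kb downstream (chr16:92714705-92716380, 80.8 to 93.6). The regions 41.4, 205.2 and 110.4 kb from P1 were picked as the strongest others of the locus, so the rest was weaker by that choice. Of the 82 regions of the locus, 20 were held by 1 library (23.5% of all regions) and 13 by 2.

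The single Runx2 start used here was the weakest of the member starts, and other Runx2 starts were not analysed. Its region (chr17:44814225-44815163) held no peak in FL 1, FL 2, KO 1 and KO 2, and stood at 22.8 for FL 3, 35.8 for KO 3, and 13.2 and 11.8 for 4S-A. A peak was thus present in every Tie2-Cre library, control and KO alike, and in no Mx1-Cre library. The same held for 7.71% of all regions, and set and list length cannot be told apart here. The strongest Runx2 regions lay far inside the gene or belonged to a neighbour. A region 159.9 kb downstream of the start (chr17:44654396-44655159) was open in all libraries at 89.8 to 97.8, and another 89.3 kb downstream (chr17:44724779-44725745) at 60.9 to 95.3. The region chr17:44776636-44777974, at 89.0 to 93.7, lies at the start of Supt3, a SAGA complex subunit gene that overlaps Runx2.

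Runx3 P1 was among the strongest member starts. The region (chr4:135119968-135120734) stood at 97.8, 96.3 and 96.1 in FL, 98.0, 97.9 and 97.8 in KO, and 94.1 and 94.6 in 4S-A. Both 4S-A libraries were below all others. P2 (chr4:135151983-135153963) was lower in 8 of 8 libraries, by 23.2 to 34.5 percentile points, with 68.5, 70.4 and 62.0 in FL, 63.5, 68.0 and 71.9 in KO, and 70.9 and 63.2 in 4S-A. The groups overlapped at P2. Relative to all starts open in 8 libraries, 80.6% had a lower mean percentile than Runx3 P1 and 13.9% a lower one than P2. Strong regions outside the gene lay 50.6 kb upstream (chr4:135069480-135070572, 93.7 to 97.5) and 72.4 kb downstream of P1 (chr4:135192599-135193581, 94.1 to 97.9). The strongest of the locus, chr4:135272181-135273354 at 95.1 to 99.8, lies at the start of Clic4, a chloride intracellular channel gene.

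The Cbfb start was as strong as Runx3 P1. Its region (chr8:105170089-105171877) stood at 94.9, 98.4 and 97.3 in FL, 98.7, 98.2 and 95.3 in KO, and 97.3 and 95.4 in 4S-A, with overlapping groups. It was above Runx3 P1 in 6 of 8 libraries, within 3.23 points in each, and 82.9% of starts open in all libraries had a lower mean. The peak spanned 1631 to 1787 bases in the Tie2-Cre set and reached into the gene. In the Mx1-Cre set it spanned 535 to 797 bases, and a second, weaker peak of the region lay inside the gene, 0.82 to 0.85 kb downstream of the start, at percentiles of 32.7 to 56.6. The other strong regions of the locus sat at neighbouring genes, namely at an end of 4931428F04Rik and Exoc3l (chr8:105288958-105290374, 90.7 to 96.4), at the start of D230025D16Rik (chr8:105224540-105226189, 89.5 to 98.4) and at an end of B3gnt9 (chr8:105253906-105254920, 79.7 to 94.0).

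**Figure D2:**
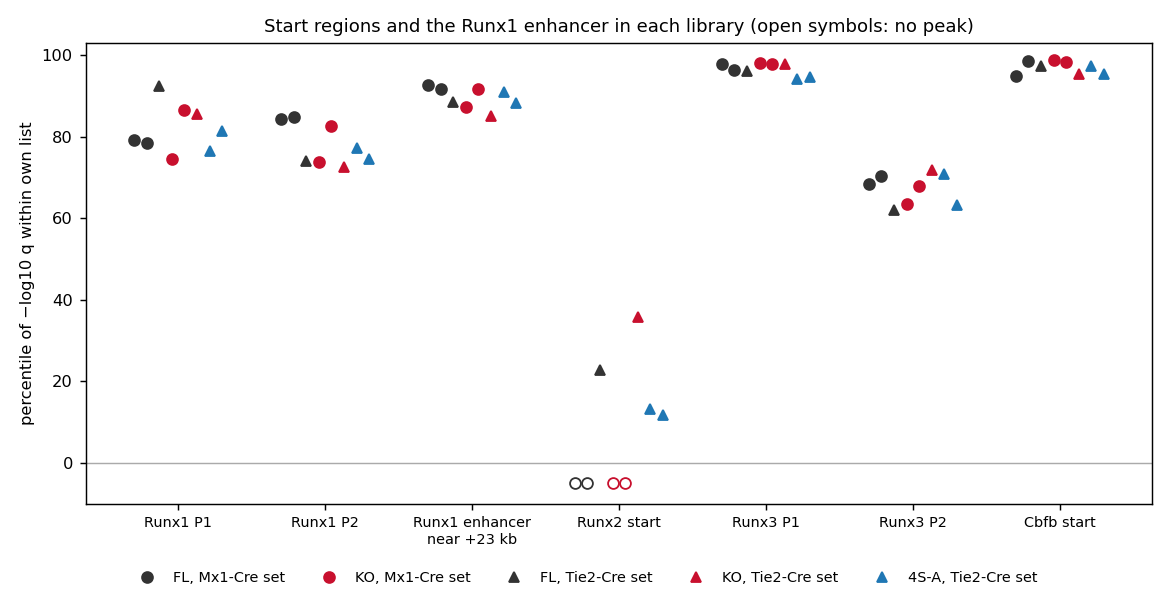
Percentile of −log10 q within the library's own list (y axis) for the start regions of the 4 genes and the Runx1 enhancer (x axis), with 1 symbol per library, colored by group and shaped by set. Open symbols below 0 mark libraries with no peak; the Runx2 start is absent from all 4 Mx1-Cre libraries, while Cbfb and Runx3 P1 lie above 94 everywhere.

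By mean percentile the order of the member starts was Cbfb and Runx3 P1, whose ranges overlapped, then Runx1 P1 and P2, whose ranges also overlapped, then Runx3 P2 and last the single Runx2 start used. Genes whose strongest end region varied most like the member start over the 8 libraries were Slc7a1 (Pearson r = 0.952) and Cenpj (0.950) for Runx1 P1, Neurog3 (0.948) and Lman1 (0.943) for Runx3 P1, and Nr2c2 (0.958) and Gins2 (0.954) for Cbfb. These are the highest of 10766 genes, and the libraries share set and list length, so they are a description only. The Runx2 start was left out because 4 of the 8 lists had no peak there.

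Knockout and control were compared first by presence. Of the 75 member regions held by all 3 FL libraries none was lost from all 3 KO libraries, where the share over all regions was 0.214%. Of the 88 held by all 3 KO libraries, 2 were absent from all FL libraries, where the share over all regions was 0.754%. One lay 42.7 kb upstream of Runx1 P1 (chr16:92868502-92868864), where KO 1, KO 2 and KO 3 stood at 9.25, 35.5 and 27.0. The other lay 21.6 kb upstream of Cbfb, inside the carboxylesterase gene Ces4a (chr8:105148890-105149146), at 1.14, 16.2 and 16.5. Both were weak and absent from 4S-A, and with lists cut to the 51510 strongest peaks each neither was gained.

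Inside the Mx1-Cre set 1 of 75 member regions was lost (2.07% of all regions) and 8 of 91 were gained (13.5% of all regions). The lost one lay 35.7 kb upstream of Runx1 P1 (chr16:92861666-92861994), and is named after its values were seen. It stood at 46.5, 45.6 and 7.71 in FL, had no peak in KO 1 and KO 2, and stood at 5.64 in KO 3. In the Tie2-Cre set, with 1 library a group and no replicate check, KO 3 lacked 17 of the 151 member regions of FL 3 (14.4% of all regions) and held 30 of its 164 that FL 3 lacked (15.3% of all regions). The gained share was 12 of 52 at Runx1, 10 of 48 at Runx2, 6 of 40 at Runx3 and 2 of 24 at Cbfb. The gained share of KO 3 was thus 23.1% at Runx1, 20.8% at Runx2, 15% at Runx3 and 8.33% at Cbfb, beside 15.3% of all regions. These shares rest on 1 library a group and no test, and with equal-length lists the 30 gains became 10.

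Coverage of a locus was the percent of its regions with a peak, minus the same percent over all regions in that library. At Cbfb it was 30.9, 24.5 and 27.6 points for FL 1, FL 2 and FL 3 and 30.9, 38.6 and 26.9 for the KO libraries, so that both groups overlapped. Means were 27.7 ± 3.22 points in FL and 32.1 ± 5.91 in KO (SD, n = 3 each), and 16.9 over both 4S-A libraries. Runx1 means were −1.51 ± 7.43 in FL and −1.61 ± 3.37 in KO, Runx2 means −0.60 ± 4.55 and 3.44 ± 8.87, and Runx3 means 8.16 ± 4.26 and 7.72 ± 1.53. No locus differed between KO and FL beyond the spread (two-sided exact permutation test, p = 1.0, 0.6, 0.9 and 0.5 for Runx1, Runx2, Runx3 and Cbfb, all adjusted to 1.0 over the 4 loci). The smallest p this design can give is 0.1. Within sets the KO minus FL difference at Runx1 was −4.09 with Mx1-Cre and 7.87 with Tie2-Cre, at Runx2 1.47 and 9.17, at Runx3 −0.33 and −0.67, and at Cbfb 7.02 and −0.67. The Cbfb difference turned to −3.83 points with equal-length lists.

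**Figure D3:**
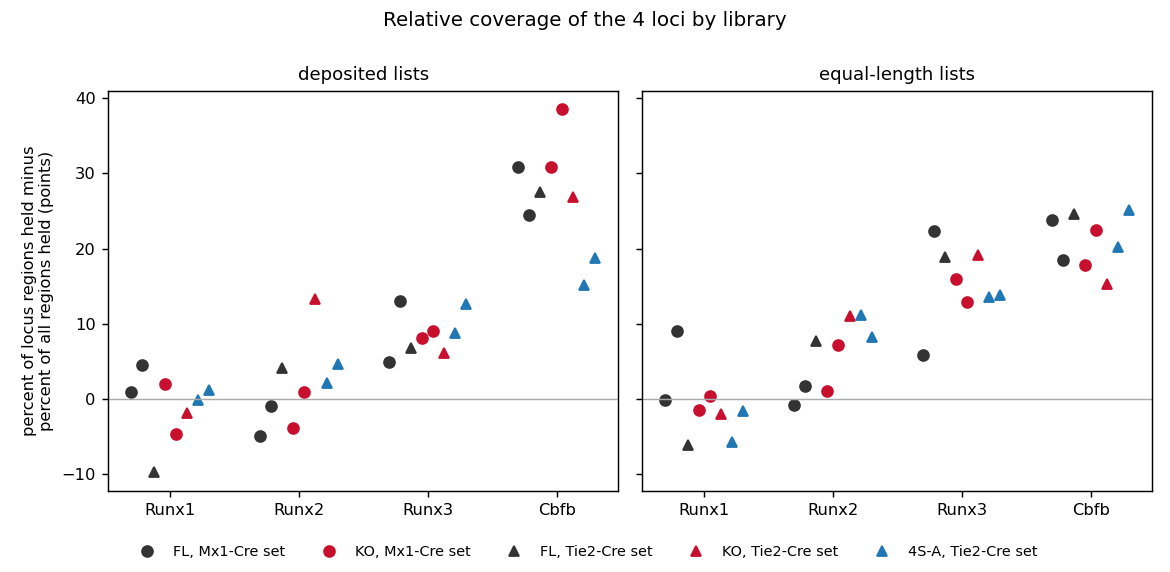
Relative coverage in percentage points (y axis) of each locus (x axis) in each of the 8 libraries, for the deposited lists and for lists cut to equal length; color gives the group and shape the set. Cbfb lies above 0 in every library, FL and KO overlap at each locus, and the low 4S-A values at Cbfb in the deposited lists are not seen with equal-length lists.

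Strength was compared over the 33321 regions held by all 8 libraries, each ranked from 0 to 100 among these regions within a library, so that list length has no direct part. The fit was limma with the set as covariate, with Benjamini-Hochberg adjustment over all 33321 regions. KO against FL gave no call at an adjusted p of 0.05 in either direction (0% of regions), although 1808 regions were higher and 1548 lower at an unadjusted p under 0.05. Without FL 3 the fit called 137 regions and without KO 3 132, none of them at the 4 genes. Of the 70 member regions 4 and 3 were so, 5.71% and 4.29%, against 5.43% and 4.65% of all regions. The median difference of the 70 regions was −1.19 rank points, beside −0.07 over all regions, with 28 higher and 42 lower. Set apart by gene, medians were −3.60 at Runx1, −0.33 at Runx2, −0.87 at Runx3 and −2.72 at Cbfb.

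The starts did not differ between KO and FL beyond the spread. Differences were −7.79 rank points at Runx1 P1 (SE 6.70, limma adjusted p = 0.748), −11.4 at Runx1 P2 (SE 7.02, adjusted p = 0.623), 1.96 at Runx3 P1 (SE 1.76, adjusted p = 0.761) and −0.39 at the Cbfb start (SE 2.07, adjusted p = 0.972). The Runx1 P1 difference was −2.58 without FL 3 or without KO 3 and −12.7 without KO 2, and the Runx3 P1 difference was 0.59 without FL 3 or KO 3 and 3.12 without FL 1. The +23 kb enhancer ranked at 88.6, 86.2 and 68.5 in FL and 78.6, 81.6 and 59.2 in KO. Each KO rank there was below the FL ranks of its set, with a difference of −7.98 (SE 3.59, limma adjusted p = 0.479). The lowest p among the members was that of a region inside Runx1, 99.0 kb downstream of P1 (chr16:92726704-92727571), which was singled out after its values were seen. Its own-list percentiles were 53.4, 70.4 and 65.4 in FL, 18.3, 54.3 and 40.8 in KO, and 71.8 and 66.2 in 4S-A. In these percentiles KO 2 overlapped FL 1. In ranks among the shared regions all KO values (4.78, 15.3 and 3.97) lay below all FL values (33.5, 52.9 and 20.0), and the difference of −27.5 rank points (SE 7.27) had a limma adjusted p of 0.313.

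A further Runx1 region was also singled out after its values were seen. It lies 30.0 kb past the gene end (chr16:92571079-92571851), outside the rank fit because KO 1 has no peak there. It stood at 89.0, 85.5 and 74.9 in FL, was absent from KO 1 and stood at 22.6 in KO 2 and 66.6 in KO 3, against 89.0 and 85 in 4S-A. All KO values were below all FL values, and 4S-A lay within or at the top of the FL range. Counting an absent peak as lowest, 3 of 75 member regions had every KO value below the FL values of the same set, against 4.96% of all 37770 regions, and all 3 were at Runx1. By the mean fall the region 30.0 kb past the gene end ranked 8 of the 1873 regions so counted. It was picked as the member region with the largest mean fall, so this rank is a description only. In the opposite direction 18 of 88 member regions had every KO value above, against 21.4% of all regions. With equal-length lists the counts were 9 of 69 below (13.1% of all regions) and 6 of 74 above (12.6% of all regions). The 9 were then no longer all at Runx1, with 4 at Runx1, 3 at Runx3 and 2 at Cbfb.

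The KO effect was also compared between the sets by an interaction term. Of 33321 regions 6 were called and none of the 70 member regions, whose lowest adjusted p in limma was 0.358. The sets themselves differed widely. All 4 Mx1-Cre ranks lay above all 4 Tie2-Cre ranks at 16 of 70 member regions (15.7% of all regions), and below them at 2 of 70 (14.7% of all regions). Runx1 P2 was one of the 16, at ranks of 56.7 to 75.8 in the Mx1-Cre set and 32.0 to 38.2 in the Tie2-Cre set. So were the +23 kb enhancer, at 78.6 to 88.6 against 59.2 to 72.5, and Runx3 P2, at 33.8 to 53.0 against 16.0 to 31.0. At Runx1 P1 the sets overlapped, at 58.1 to 70.1 and 36.6 to 79.1. What separates the sets cannot be told apart from list length and Dek allele.

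The 4S-A libraries were compared with FL in the same fit, and with FL 3, the control of their set, by presence and value. KO and 4S-A share the FL controls. In limma 35 regions were higher in 4S-A (0.105% of regions) and 22 lower (0.066%) at an adjusted p of 0.05, and 1 of the 70 member regions was among the higher ones and none among the lower. The called region lies 19.5 kb past the end of Runx1 (chr16:92581585-92582847). Its percentiles were 10.1, 12.5 and 61.8 in FL, 61.1, 60.7 and 59.8 in KO, and 89.5 in both 4S-A libraries. Both 4S-A values were above all others, and in these percentiles FL 3 lay with the KO libraries rather than with FL 1 and FL 2. Ranks among the shared regions placed FL 3 (15.7) beside KO 3 (14.9) of its own set. There FL 3 lay between FL 1 and FL 2 (1.94 and 1.72) and KO 1 and KO 2 (38.6 and 22.7).

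This Runx1 region rose by 63.7 rank points in 4S-A (SE 10.6, limma adjusted p = 0.0318). Within the Tie2-Cre set alone its ranks were 15.7 for FL 3, 14.9 for KO 3, and 68.1 and 71.0 for the 4S-A libraries, a difference from FL 3 of 53.8. The call was lost when any 1 of the 8 libraries was left out (adjusted p of 0.0516 to 0.181), without the set covariate (0.0682) and when peaks were ranked by fold enrichment (33.6 rank points, adjusted p = 0.575). Deposited fold enrichment at its summit was 4.07, 4.02 and 10.1 in FL, 7.77, 8.02 and 9.49 in KO, and 11.3 and 11.6 in 4S-A. The peak was 1263 and 1044 bases wide in 4S-A, 836 and 865 in KO 3 and FL 3, and 202 to 488 in the Mx1-Cre set.

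Runx1 P1 had a lower rank in both 4S-A libraries than in any other, 36.6 and 51.0 against 68.4, 65.0 and 79.1 in FL and 58.1, 70.1 and 60.9 in KO. The difference of −30.1 (SE 8.86) did not pass the test (limma adjusted p = 0.190), and was −19.6 without FL 3 and −11.6 when peaks were ranked by fold enrichment. The region 41.4 kb upstream of P1 also ranked lowest in 4S-A, at 75.6 and 70.7 against 80.8 to 87.5 elsewhere, with a difference of −14.3 (SE 3.69, limma adjusted p = 0.133). Runx3 P1 ranked at 81.8 and 84.9 in 4S-A against 89.2 to 96.7 elsewhere, a difference of −7.24 (SE 2.33, limma adjusted p = 0.236). By fold enrichment these differences were −4.19 and −2.59. Runx1 P2, the +23 kb enhancer, Runx3 P2 and the Cbfb start differed by −0.85, 2.26, −1.54 and −0.59 rank points, with adjusted p-values between 0.942 and 0.991 in limma. Over the 70 regions the median difference was 0.87 rank points, beside −0.10 over all regions.

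**Figure D4:**
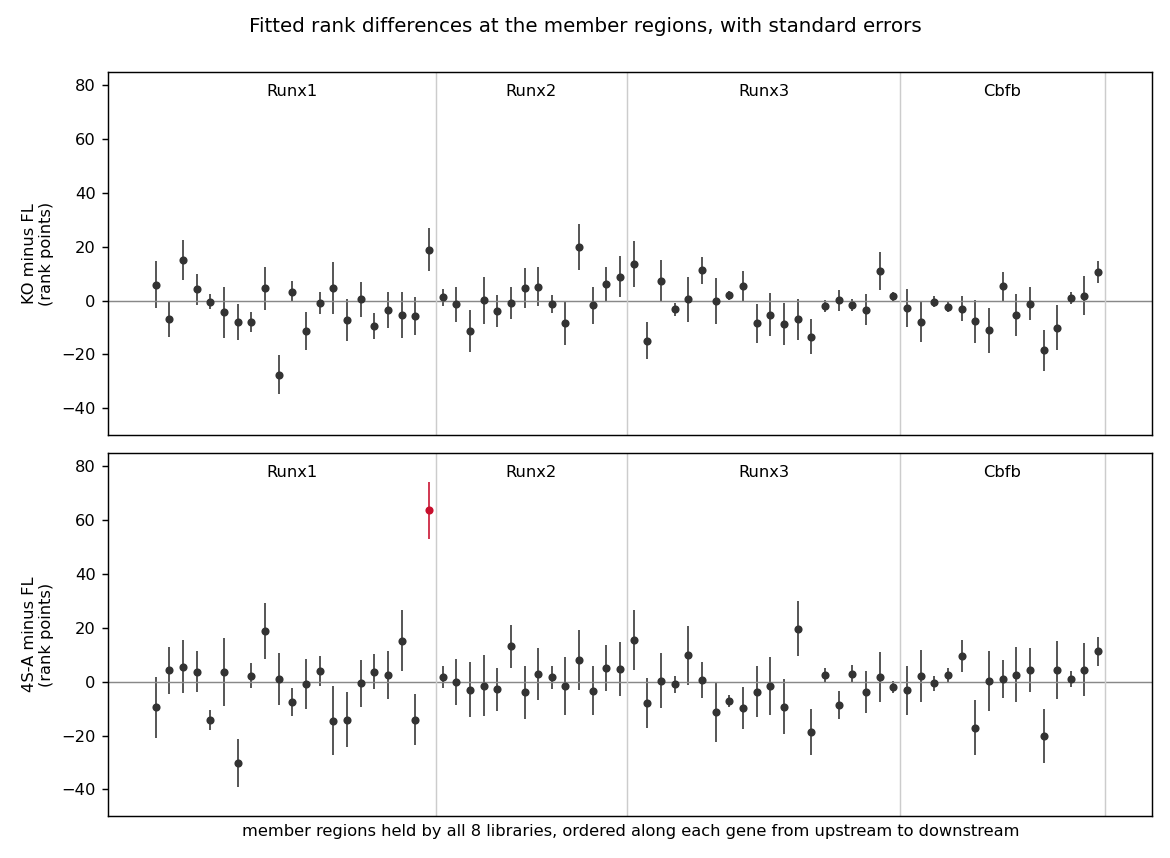
Fitted difference from FL in rank points (y axis) for KO (top) and 4S-A (bottom) at each of the 70 member regions held by all 8 libraries, ordered along each gene (x axis), with limma standard errors as bars. The red point is the Runx1 region called in 4S-A, at 63.7; Runx1 P1 is the lowest 4S-A value of the plot, at −30.1.

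By presence, both 4S-A libraries held 25 of 154 member regions that FL 3 lacked (16.4% of all regions) and lacked 11 of the 151 that FL 3 held (11.7% of all regions). Gains were 12 of 50 at Runx1, 4 of 39 at Runx2, 9 of 43 at Runx3 and 0 of 22 at Cbfb, with 1 control library and no test. Of the 25 gained regions 12 were also held by a library other than these, so those 12 were not specific to the mutant. Both 4S-A libraries and no other held 13 member regions (5.78%, against 5.95% of all regions). The strongest gain at Runx1 lay 25.5 kb past the gene end (chr16:92575865-92576194), at 52.7 and 58.7 in 4S-A and 45.1 in KO 2. A gain held by no other library lay 2.33 kb downstream of Runx1 P1 (chr16:92823392-92823881), at 45.9 and 49.2, and one at 42.7 and 54.2 lay 42.3 kb downstream of P1 (chr16:92783481-92783968), where KO 3 stood at 32.3.

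At Runx2 the strongest gain was 169.3 kb downstream of the start (chr17:44645122-44645531), at 62.4 and 56.2 in 4S-A and in no other library. The other named Runx2 gains, 204.6 and 144.5 kb downstream of the start, stood at 7.11 to 21.9 in 4S-A and were each held by 2 further libraries. At Runx3 gains lay 119.8 kb downstream of P1 inside Clic4 (47.0 and 40.6, with 32.7 in KO 3), 154.2 kb downstream (43.2 and 35.9) and 44.6 kb downstream inside Runx3 (35.2 and 35.6). Regions of FL 3 that both 4S-A libraries lacked were weaker. The 11 of them had percentiles of 4.68 to 31.7 in FL 3, the highest being a Runx3 region 96.5 kb upstream of P1 that no other library held.

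**Figure D5:**
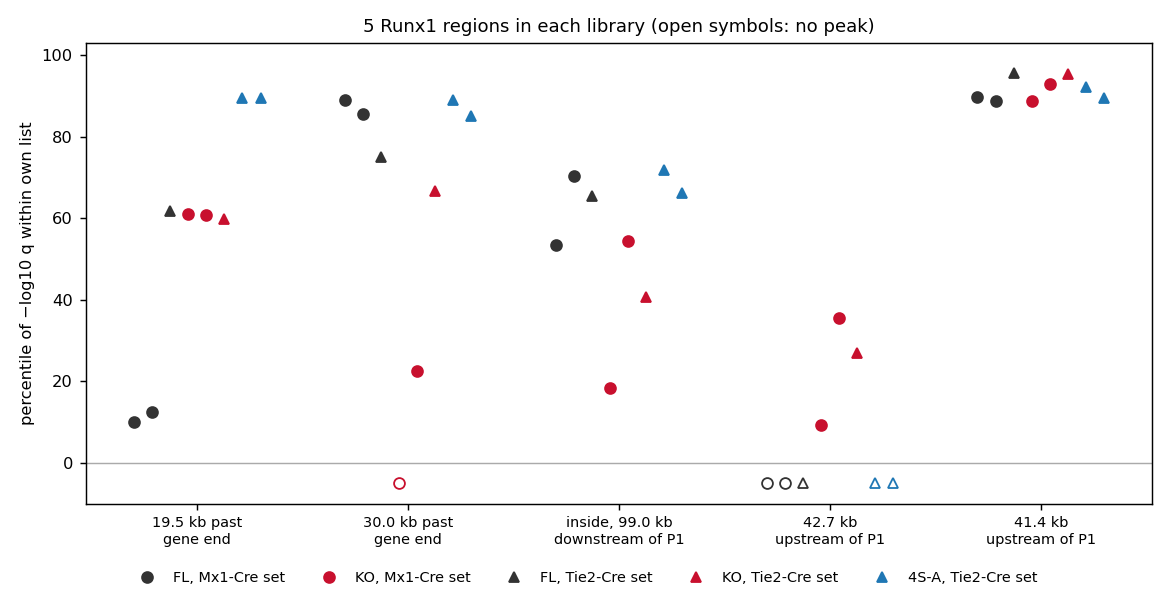
Percentile within the library's own list (y axis) of 5 Runx1 regions (x axis), with 1 symbol per library, colored by group and shaped by set; open symbols mark an absent peak. The region 19.5 kb past the gene end is highest in 4S-A at 89.5, and the region 30.0 kb past it is lowest in the 3 KO libraries, with no peak in KO 1.

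Genes that work with RUNX or are known targets were examined in 3 lists. Of 21045 gene starts, 10836 (51.5%) were open in all 8 libraries, and the counts below are to be read beside that share. Of 21 cofactor genes 18 had an open start in all 8 libraries, among them Tle4 (percentiles 97.8 to 99.8) and Tle1 (97.1 to 99.2), Groucho-type corepressors, Hdac1 (96.7 to 99.7), a histone deacetylase, and Ep300 (87.5 to 97.5), a histone acetyltransferase. Runx1t1, the ETO gene that fuses with RUNX1 in leukemia, and the corepressor gene Tle2 were open in 1 library each, and Yap1 in 4. Of 16 blood target genes 10 had an open start in all libraries, including Cebpa (89.4 to 93.3) and Spi1 (75.6 to 84.8), myeloid transcription factors, Csf1r (79.4 to 96.3), the M-CSF receptor, and Mpo (45.1 to 82.6). Among the others, Il3 and Rag1 were open in none. For Hdac1, Runx1t1, Spi1 and Csf1r, which the list of RefSeq starts lacks, a region at either end of the gene was counted as the start. Of 8 bone target genes of RUNX2, Spp1 and Alpl were open in all libraries, and Bglap, Ibsp, Mmp13 and Col10a1 in none. No region of the 3 lists was called in limma in KO (0 of 58, 41 and 9 tested regions) or in 4S-A, where 0% and at most 0.105% of all regions were. By presence 1 of the 148 list regions held by all KO libraries was gained against FL, at Csf3r (0.754% of all regions), and 0 of the 124 held by all FL libraries were lost (0.214% of all regions).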

How the data were processed

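ATAC-seq libraries were made from about 5000 sorted cells each and amplified for 13 to 16 PCR cycles, per the labels. The submitters' processing notes name the mm10 build and, as tools, MACS2, featureCounts, Picard, Bowtie2 2.2.9 and Trim Galore 0.4.4; roles and parameters are not given in the sources used here. Each library has its own list, so the authors called peaks on single samples. A peak carries a score that the authors deposited as a whole number, a fold enrichment that the authors deposited as a ratio, and a deposited −log10 q. No value was scaled between libraries, so each was used only to rank peaks within a list. The lowest −log10 q was 1.30 to 1.41 per list. No 2 lists were identical (0 pairs).

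Only peaks on the 19 autosomes and on X were used, and those that shared at least 1 bp were merged over libraries. Gene spans, starts and promoter sequences came from RefSeq GRCm38.p6 tables, which give no exons. A region was lost when every control library and no library of the other group had a peak in it; gains are the mirror image. Ranks were fitted with limma 3.58.1 (R 4.3.3, trend on, set as covariate), tested on simulated data. Coverage was compared by exact permutation.

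Always described were the starts, Runx1 P2 and the +23 kb enhancer, all regions lost or gained in KO against FL, the 3 strongest other regions per locus, and up to 3 lost and 3 gained per locus in 4S-A. Other regions were named after their values were seen, as the text says. The members and lists were chosen with earlier results of these data known. The labels number FL and KO libraries 1 to 3, and same-numbered libraries deviated together over the 33321 shared regions (correlations of 0.241, 0.303 and 0.553). FL 1 and KO 2 (0.275) and FL 2 and KO 1 (0.266) did so as well. Within the Mx1-Cre set the correlations therefore do not single out pairs by number. The numbers were used as pairs only in the replicate block, and the main fit and coverage test did not pair libraries. Peak names inside the lists carry other numbers, 2 in KO 1, 3 in KO 2 and 1 in FL 3 and KO 3, so which libraries a number pairs is not certain. Alternatives were equal list length, a −log10 q of at least 3, a flank of 10 kb, merging of summits within 200 bp, fold enrichment ranks, normal scores, no set covariate, each set alone, a replicate block and leaving out each library. The result for 1 gene of the blood target list is not reported here.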

Additional observations from a re-analysis of the deposited data

How the results depend on the processing

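The replicate block left 0 regions called in KO against FL (limma, 2278 at an unadjusted p under 0.05). Coverage differences were −0.11 at Runx1, 4.04 at Runx2, −0.44 at Runx3 and 4.46 at Cbfb (exact permutation p of 1, 0.25, 0.75 and 1 within pairs). The smallest p that this paired permutation test can give is 0.25, the value at Runx2, so it could call no locus. With equal-length lists the coverage difference turned to 0.30 at Runx3 and −3.83 at Cbfb, and with merged summits to 1.38 at Runx3. With 1 library left out it ran from −4.28 to 2.86 at Runx1, −0.89 to 7.70 at Runx2, −2.11 to 1.96 at Runx3 and 1.25 to 7.07 at Cbfb.

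Gains in KO against FL fell from 2 to 0 with equal-length lists, 1 at a −log10 q of at least 3 and 0 with a 10 kb flank. The Mx1-Cre set alone gave 1 lost and 8 gained, the Tie2-Cre set alone 17 and 30, and leaving out 1 library 0 to 1 lost and 2 to 8 gained. In the Mx1-Cre set equal-length lists gave 2 lost and 5 gained, the 10 kb flank 0 and 2, merged summits 3 lost, and leaving out 1 library 1 to 8 lost and 12 to 25 gained. For KO 3 against FL 3 equal-length lists gave 9 lost and 10 gained and the 10 kb flank 7 and 19. For 4S-A equal-length lists gave 10 gained, the 10 kb flank 3 lost and 16 gained, and leaving out 1 library 14 to 19 lost and 32 to 38 gained. Fewer regions were counted with the narrow flank by construction; the cause was otherwise not tested.

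In 4S-A against FL the 57 calls, 35 of them higher and 1 at the 4 genes, became 17, 1 and 0 by fold enrichment, 9, 5 and 0 without the set covariate, 120 with 80 higher in equal-length lists and 187 with 79 higher in normal scores. Leaving out 1 library gave 1 to 129 calls, 0 to 70 of them higher and 0 to 0 at the 4 genes. In KO against FL it gave 0 to 137 calls, 0 to 86 of them higher and 0 at the 4 genes; 137 came without FL 3 and 132 without KO 3. Uncalled differences that changed sign were, in 4S-A, the Cbfb start (0.84 by fold enrichment, −3.14 to 4.50 with 1 library left out), the +23 kb enhancer (−11.0 without the set covariate, −0.13 to 4.66), Runx3 P2 (0.0069 in normal scores, −21.7 to 8.54) and Runx1 P2 (−10.1 to 3.80), and in KO the Cbfb start (0.035 in normal scores, −2.60 to 2.16) and the Runx1 region 41.4 kb upstream (−1.36 to 0.63). The 2 comparisons added after seeing the data were the equal-length counts of KO libraries below or above FL, 9 and 6 against 3 and 18, and the Tie2-Cre value of the called Runx1 region, 53.8. Read depth is unknown, which limits every absent peak to absence from a list.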
